A study of Mus musculus with 36 samples.

Results

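The measurements below ask whether mouse embryonic stem cells that carry LiTEC, a construct made for light-induced targeting of endogenous condensates, answered blue light with another set of transcripts than wild-type (WT) cells did. Of the 36 RNA-seq libraries of the series, 12 were taken 0 h after the light period, and these were chosen by their labels alone: 3 of lit LiTEC cells, 3 of dark LiTEC cells, 3 of lit WT cells and 3 of dark WT cells. Every group was grown without serum in the 2i and LIF medium that keeps such cells naive, and every group had doxycycline (2 µg/ml) for 2 days. The lit cultures stood for 30 min on a panel of blue LEDs, and the dark ones did not. The labels call the genotype LiTEC transfected, and whether those cells were a clone or a pool, or the replicates separate cultures, is not given in the sources used here, so the tests below speak only to the scatter among libraries, some or all of which may be technical.

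In each genotype the light effect is the log2 fold change from dark to lit cells. The quantity reported here, called the difference, is the light effect in LiTEC minus that in WT. A positive difference thus means either a smaller fall or a larger rise after light in LiTEC cells. Levels are read counts scaled to a common library size (CPM, with TMM-scaled sizes).

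Many of the RNAs described below are tied to small nucleolar RNAs (snoRNAs), short guides for the chemical modification of ribosomal RNA. Most mammalian snoRNAs are cut out of the introns of a host gene. Many noncoding hosts, such as Gas5 and the Snhg genes, share with ribosomal protein mRNAs a pyrimidine-rich start that links translation to growth signals, and their spliced RNAs are kept low by nonsense-mediated decay. The Hsp70 genes Hspa1a and Hspa1b are switched on by heat shock factor 1 when proteins misfold.

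Total counts of the 12 libraries ran from 11132970 to 21842256. The ribosomal RNA locus Gm26917 took 16.3% of counts in lit LiTEC replicate 1 and between 8.25% and 12% in the others. The stem cell factor gene Pou5f1 was at 310 to 411 CPM and Nanog at 280 to 550 CPM, and the summed level of 7 stem cell markers was between 2151 and 2734 CPM. The summed levels of other lists were lower: 462 to 842 CPM for 11 formative and primed pluripotency genes, 216 to 288 for two-cell-like state markers, 144 to 247 for primitive endoderm, 112 to 138 for neuroectoderm and 54.5 to 106 for trophectoderm markers, 26.9 to 54.9 for 10 fibroblast and feeder genes and 7.09 to 24.8 for 9 mesendoderm genes. Of the fibroblast and feeder genes 3 had no count in dark LiTEC cells and 2 had none in each other group. In bulk RNA, fewer cells of a type and less RNA per cell cannot be told apart.

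Of 18193 genes tested, the difference was called at an adjusted p below 0.05 for 4, which is 0.022% (edgeR's quasi-likelihood test with Benjamini-Hochberg adjustment over all tested genes). It was positive for Lrrc75aos2, Snord43 and Gas5, or 0.0165%, and negative for B830012L14Rik, or 0.0055%. All 4 are noncoding. An unadjusted p below 0.05 was reached by 559 genes with a positive difference (3.07%) and 570 with a negative one (3.13%). The positive share moved with the setting: it was 4.99% with the replicate block, 4.79% without lit WT replicate 3, 1.96% without dark LiTEC replicate 2 and 1.55% in batch 2 alone. The median difference over all tested genes was 0.006. With the replicate number as a block, which pairs same-numbered libraries, 7 genes were called: these 4, Dancr and Amd1 above 0, and Malat1 below. With no expression filter 31 were called, among them Hspa1a, Hspa1b, Dancr, Snhg4, Snord49b, Meg3 and Gm37899 described below. In batch 2 alone (replicates 2 and 3) none was called, with 653 genes at an unadjusted p below 0.05 and a lowest adjusted p of 0.259 by edgeR.

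The highest-ranked gene was Lrrc75aos2 (ENSMUSG00000085762.1), an antisense noncoding RNA on the plus strand of chromosome 11, 62605766 to 62607748 in GRCm38. It lay at 10.1, 9.30 and 10.8 CPM in dark WT and at 2.59, 2.74 and 1.73 CPM in lit WT cells (replicates 1 to 3). In LiTEC cells it lay at 9.36, 8.18 and 9.91 CPM in the dark and at 6.48, 7.68 and 7.19 CPM after light. The 3 lit WT libraries were thus below the other 9, and the lit LiTEC libraries were below the dark ones of both genotypes. The difference was 1.70 ± 0.23 (SE; edgeR adjusted p = 0.000189, n = 3 a group), from a light effect of -2.07 in WT and -0.37 in LiTEC. By replicate number it was 1.28, 1.51 and 1.91. It stayed called without any of the 12 libraries in turn (highest edgeR adjusted p 0.0024), and in batch 2 alone it was 1.86 with an adjusted p of 0.259.

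Lrrc75aos2 overlaps an exon of Lrrc75a, which is read from the opposite strand. Since the strand setting of the counting is not given in the sources used here, reads from the pair may not be separable. Lrrc75a itself was at 1.55 ± 0.487 CPM in dark and 1.79 ± 0.374 CPM in lit WT cells (SD, n = 3), and at 4.60 ± 1.03 and 4.73 ± 0.474 CPM in LiTEC cells. Its difference was -0.19 ± 0.33 (SE; edgeR adjusted p = 0.965). Lrrc75a thus showed neither the low level in lit WT cells nor a positive difference.

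Lrrc75aos2 holds no annotated snoRNA gene of its own, but begins 958 bases beyond the end of 2410006H16Rik (chromosome 11, 62602877 to 62604807, plus strand), whose introns hold Snord49b, Snord49a and Snord65. The spliced RNA of 2410006H16Rik was at 52.8 ± 1.58 CPM in dark and 48.6 ± 2.90 CPM in lit WT cells, and at 47.4 ± 5.41 and 42.8 ± 1.23 CPM in LiTEC cells (SD, n = 3). Its difference was -0.03 ± 0.12 (SE; edgeR adjusted p = 0.99). All 3 of its snoRNA genes had positive differences at an unadjusted p below 0.05, and none was called: Snord49b 1.55 ± 0.36, Snord49a 0.90 ± 0.31 and Snord65 2.28 ± 0.71 (SE; edgeR adjusted p = 0.349, 0.68 and 0.68). Snord49b lay at 3.89, 5.32 and 4.99 CPM in dark WT, 1.00, 1.93 and 1.15 in lit WT, 4.39, 3.04 and 4.43 in dark LiTEC and 3.49, 4.25 and 2.4 in lit LiTEC libraries. Snord49a lay at 7.36 to 10.9 CPM in dark WT and 3.02 to 3.33 in lit WT libraries, against 7.75 to 11.5 and 5.42 to 6.99 in LiTEC ones. Within this gene cluster, then, Lrrc75aos2, Snord49b and Snord49a had their lowest values in the lit WT libraries, whereas for the host 2410006H16Rik the lit WT and dark LiTEC libraries overlapped.

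Snord43 (ENSMUSG00000105167.1) came next. It sits on the minus strand of chromosome 15, 80082847 to 80082954, in an intron of the ribosomal protein gene Rpl3 and on the same strand, and GENCODE M21 files it as a microRNA although its symbol is that of a box C/D snoRNA. Box C/D guides are recognised by a box C near the 5′ end and a box D near the 3′ end. The sequences of this gene and of the 3 snoRNAs beside Lrrc75aos2 are shown because their positive differences stand around the first 2 called genes. They are from GENCODE M21 (GRCm38), 5′ to 3′ on the transcribed strand, with box C (TGATGA) and box D (CTGA) in capitals.
Snord43, chr15:80082847-80082954, minus strand: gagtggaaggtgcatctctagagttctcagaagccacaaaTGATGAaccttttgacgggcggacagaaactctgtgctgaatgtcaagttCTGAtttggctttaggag
Snord49b, chr11:62603079-62603150, plus strand: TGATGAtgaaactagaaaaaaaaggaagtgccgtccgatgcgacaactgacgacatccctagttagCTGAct
Snord49a, chr11:62603450-62603521, plus strand: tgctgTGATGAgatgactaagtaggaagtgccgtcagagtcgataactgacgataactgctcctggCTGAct
Snord65, chr11:62604515-62604586, plus strand: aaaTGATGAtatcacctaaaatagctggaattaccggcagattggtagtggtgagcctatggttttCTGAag

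Both boxes in this order, with exactly these letters and on the transcribed strand, occurred in 75 of 99 genes with a Snord symbol (75.8%) and in 11 of 2202 genes of the microRNA class (0.5%). Snord43 is among the latter by class, and its letters match those of the former. In Snord49b, Snord49a and Snord65 box C begins at base 1, 6 and 4, and in the longer Snord43 entry of 108 bases it begins at base 41.

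Snord43 lay at 7.23, 5.97 and 7.74 CPM in dark WT libraries and at 1.8, 2.49 and 2.16 CPM in lit ones. In LiTEC cells it lay at 7.17, 5.58 and 7.27 CPM in the dark and at 5.52, 5.42 and 5.8 CPM after light. The lit WT libraries stood below all others, and the lit and dark LiTEC libraries overlapped. The difference was 1.45 ± 0.25 (SE; edgeR adjusted p = 0.0134, n = 3 a group) and by replicate number 1.40, 1.07 and 1.33. The edgeR call of Snord43 was lost in 5 settings, with adjusted p = 0.0895 without replicate 2 of dark LiTEC, 0.179 without replicate 1 of lit WT, 0.0565 without replicate 3 of dark WT, 0.685 in batch 2 alone and 0.109 when only the 12 libraries at 0 h were fitted. Its value ran from 1.29 to 1.58 over all settings.

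The other snoRNA gene measured in Rpl3, Snord83b, had a difference of 1.21 ± 0.46 and Rpl3 itself one of 0.30 ± 0.10 (SE; edgeR adjusted p = 0.725 and 0.68). Rpl3 lay at 460, 450 and 502 CPM in dark and 378, 326 and 403 CPM in lit WT libraries, and at 507, 437 and 506 CPM in dark and 480, 459 and 458 CPM in lit LiTEC libraries. The kit used selects polyadenylated RNA, and in these counts a mature snoRNA and a longer RNA that contains it cannot be told apart. Of 151 snoRNA genes listed by symbol 60 were measured, 1 was called, and 6 (10%) had an unadjusted p below 0.05 with a positive difference, against 3.07% of all tested genes. These were Snord43, Snord49b, Snord49a, Snord65, Snord83b and Snord87, and no listed snoRNA reached that p with a negative difference. The wider snoRNA class of the annotation, without Snord43, took both signs. Of its 163 tested genes, 9 (5.52%) were positive and 7 (4.29%) negative at that p, against 3.07% and 3.13% of all tested genes. The median of that class was 0.01. The median over the 60 was 0.32, and it was 0.11 without lit LiTEC replicate 1 and 0.12 in batch 2 alone.

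**Figure D1:**
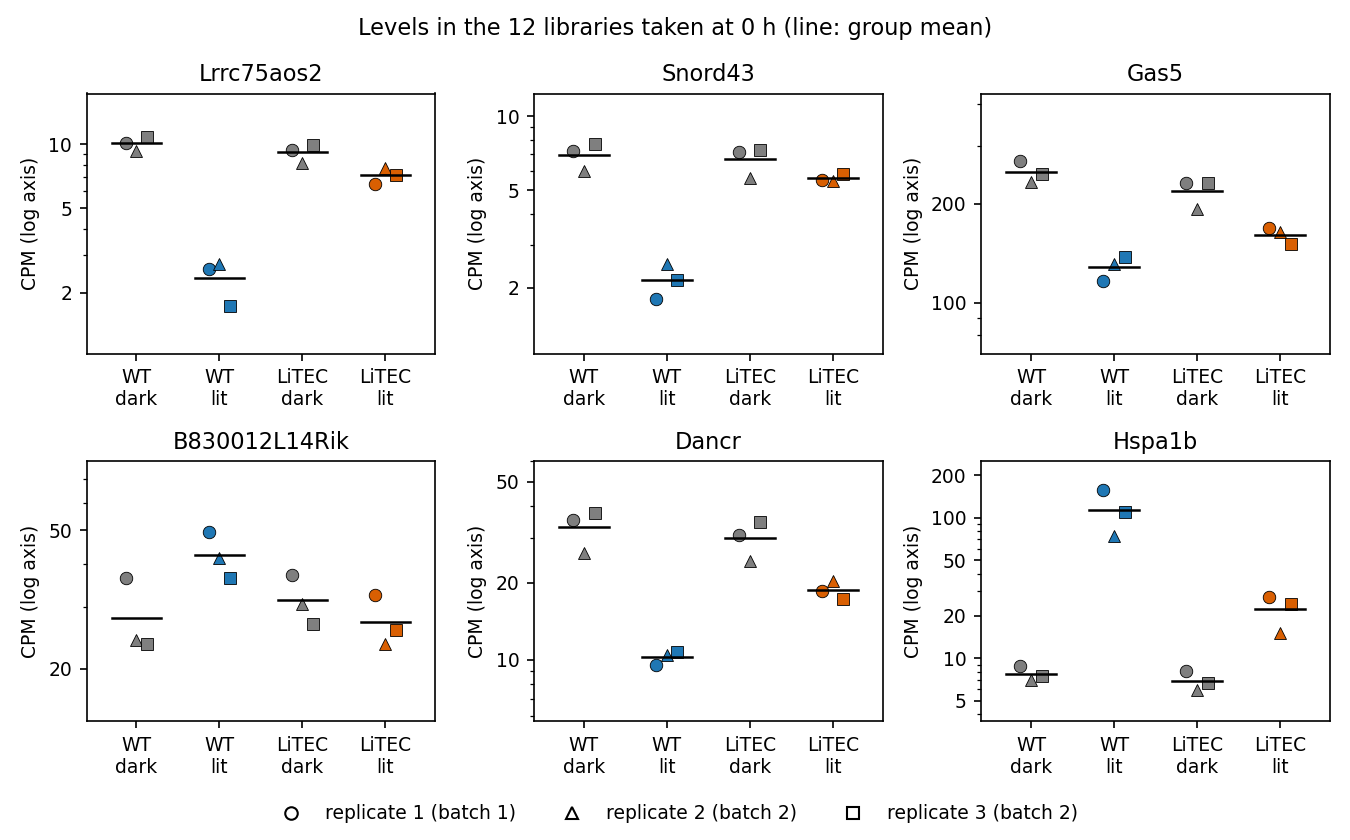
CPM (log axis) in each of the 12 libraries at 0 h for the 4 called genes and for Dancr and Hspa1b, which were not called; marker shape gives the replicate number, grey marks dark and colour lit libraries, and lines are group means of 3. Lit WT libraries stand farthest from their dark partners for Lrrc75aos2, Snord43, Dancr and Hspa1b, with lit LiTEC libraries in between or near the dark level.

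Gas5 (ENSMUSG00000053332.13; chromosome 1, 161034422 to 161038539, plus strand) holds 9 snoRNA genes and is known as an RNA that accumulates when growth stops. It lay at 270, 232 and 247 CPM in dark WT and 117, 131 and 138 CPM in lit WT libraries. In LiTEC cells it lay at 232, 192 and 232 CPM in the dark and 168, 164 and 150 CPM after light. Lit libraries were below dark ones in both genotypes, and those of WT were the lowest. The difference was 0.52 ± 0.09 (SE; edgeR adjusted p = 0.0163, n = 3 a group), or 1.43-fold. By replicate number it was 0.74, 0.60 and 0.22, the last being the smallest. The edgeR adjusted p of Gas5 was 0.0943 and 0.0721 without replicate 1 and 2 of lit LiTEC, 0.128 without replicate 2 of dark LiTEC, 0.193 without replicate 1 of lit WT, and 0.174 and 0.0565 without replicate 1 and 3 of dark WT. The call was also lost in batch 2 alone (difference 0.40, adjusted p = 1.00) and with the 12 libraries alone (0.508).

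Dancr (chromosome 5, 74093060 to 74095406, plus strand), a noncoding RNA known for holding progenitor cells undifferentiated which holds 1 snoRNA gene, missed the threshold. It lay at 35.4, 26.3 and 37.6 CPM in dark WT and 9.57, 10.5 and 10.7 CPM in lit WT libraries. It lay at 31.0, 24.4 and 34.7 CPM in dark LiTEC and 18.7, 20.3 and 17.3 CPM in lit LiTEC libraries. The 4 levels followed the order of Gas5, with no overlap between lit and dark libraries or between the 2 lit groups. The difference was 1.01 ± 0.20 (SE; edgeR adjusted p = 0.0837), and it was called with the replicate block (1.00 ± 0.14, adjusted p = 0.000289) and by DESeq2 (adjusted p = 0.00449). Dancr was called in 6 of 25 settings. With 1 library left out it was called in 2 of 12 fits, with an edgeR adjusted p of up to 0.579. In batch 2 alone its difference was 0.93 and was not called. Snhg4, another host, had a difference of 0.52 ± 0.14 (edgeR adjusted p = 0.648). Its 3 lit WT libraries were at 46.1, 71.6 and 68.3 CPM and its lit LiTEC libraries at 76.7, 83.7 and 80.7 CPM, and the replicate values of 0.96, 0.27 and 0.36 were led by replicate 1.

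The list of 24 noncoding snoRNA hosts includes Lrrc75aos2, although the annotation places no snoRNA gene in it. Of the 24, 21 were measured and 2, Gas5 and Lrrc75aos2, were called. A positive difference with an unadjusted p below 0.05 was seen in 10 (47.6%, against 3.07% of all tested genes) and a negative one in 1, Snhg11 (-0.43 ± 0.15, SE). The median difference was 0.28 (0.006 over all tested genes), from median light effects of -0.33 in LiTEC and -0.61 in WT. Other hosts with positive differences included Snhg8 (0.64 ± 0.22), Snhg6 (0.47 ± 0.18), Snhg5 (0.42 ± 0.12), Snhg12 (0.36 ± 0.16), Zfas1 (0.32 ± 0.15) and Snhg1 (0.26 ± 0.10, SE). Among the 6 with negative differences were Snhg14 and Snhg17 (-0.11 each), 2410006H16Rik and Snhg10 (-0.15 ± 0.32). Without Lrrc75aos2, 1 of 20 was called, 9 (45%) were positive at that p, and the median was 0.27. By replicate number the median of the 21 was 0.41, 0.27 and 0.10. The count of 10 fell to 6 (28.6%) without dark LiTEC replicate 2 or dark WT replicate 3 and to 4 (19.0%) in batch 2 alone. It was 9 (42.9%) without lit LiTEC replicate 1 and at most 11 with 1 library left out. The positive share of all tested genes in the fits named here was 1.96%, 2.45%, 1.55% and 1.97%, in that order.

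A wider search by position gave another view of hosts. Of 244 measured protein-coding genes that hold a snoRNA gene, 19 (7.79%) had a positive and 7 (2.87%) a negative difference at an unadjusted p below 0.05, against 3.07% and 3.13% of all tested genes, with a median of 0.03. Of 35 other hosts by position 1, Gas5, was called, 10 (28.6%) were positive at that p and 2 were negative, with a median of 0.13, and this set shares members with the list of noncoding hosts. Among the protein-coding hosts at that p were ribosomal protein and translation factor genes such as Rps20 (0.34 ± 0.12), Rpl10 (0.26 ± 0.11) and Rack1 (0.25 ± 0.09, SE), which belong to the lists described next.

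**Figure D2:**
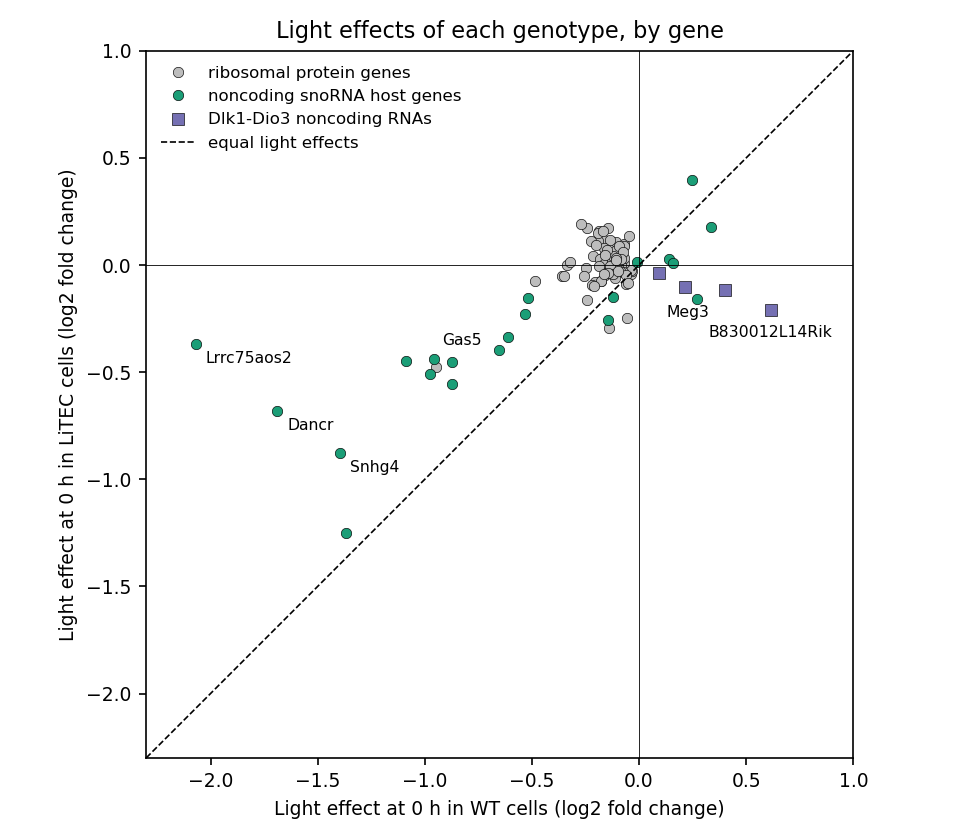
Light effect at 0 h in LiTEC cells (vertical, log2) against that in WT cells (horizontal, log2), 1 point a gene, for the 21 noncoding snoRNA hosts, 82 ribosomal protein genes and 4 noncoding RNAs of the Dlk1-Dio3 locus; the dashed line marks equal effects. Hosts with WT effects below -0.5 lie above the line, ribosomal protein genes lie close to the origin and mostly above it, and the 4 locus RNAs lie below it.

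Ribosomal protein genes had small differences, most of them of one sign. Of 82 measured none was called, 77 had a positive difference, 27 (32.9%) had one with an unadjusted p below 0.05 (3.07% of all tested genes), and none a negative one at that p. The median was 0.16, from median light effects of 0.01 in LiTEC and -0.14 in WT. Rpl7, a protein of the large subunit, lay at 709, 785 and 774 CPM in dark and 640, 659 and 723 CPM in lit WT libraries, and at 670, 662 and 731 CPM in dark and 697, 751 and 731 CPM in lit LiTEC libraries. Its groups lay close together, and its difference was 0.24 ± 0.07 (SE; edgeR adjusted p = 0.663). Rps15a was at 0.31 ± 0.09 and Fau, which encodes a fusion of a ubiquitin-like domain with a small-subunit protein, at 0.34 ± 0.11 (edgeR adjusted p = 0.68 for both). The 5 genes with negative differences were Rpl29, Rps10, Rpl23, Rps24 and Rpl19, between -0.19 and -0.003.

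The median of the ribosomal protein genes by replicate number was 0.13, 0.26 and 0.11. The count of 27 fell to 14 without dark LiTEC replicate 2 or lit WT replicate 2, to 16 without dark WT replicate 3 and to 15 in batch 2 alone, and was 18 without lit LiTEC replicate 1. The length of a gene's exons moved with the difference among other protein-coding genes of at least 5 CPM, in classes chosen after the data were seen. The median difference was 0.09 in 166 genes of under 1000 exonic bases, 0.11 in 802 of 1000 to 2000, 0.07 in 2768 of 2000 to 4000, 0.02 in 4019 of 4000 to 8000 and -0.05 in 2040 of 8000 or more. The median ribosomal protein gene of at least 5 CPM had 1776 exonic bases. Among 116 other protein-coding genes of at least 100 CPM and under 2000 exonic bases the median was 0.12, with 17 positive (14.7%) and 0 negative at an unadjusted p below 0.05. The part of exon length in the ribosomal protein result was not tested.

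A list of translation factor mRNAs, taken by name as a class with a pyrimidine-rich start, had a median of 0.08 over 20 genes. At an unadjusted p below 0.05, 5 of them were positive and 0 negative. Among the 5 were the ribosome scaffold gene Rack1 (0.25 ± 0.09, SE) and the initiation factor gene Eif3e (0.18 ± 0.07). Such starts were looked for in RefSeq promoters (GRCm38.p6) as a C within 5 bases of an annotated start followed by C or T to a run of at least 6, on the transcribed strand. A run was found in 27 of 61 matched ribosomal protein genes (44.3%), 5 of 17 matched noncoding hosts (29.4%), 4 of 14 of these translation factor genes (28.6%), 1 of 21 heat shock genes (4.8%) and 1506 of 11359 tested genes in the table (13.3%). Starts of hosts with and without a run are shown because Gas5 and Dancr, side by side in the values above, differ in it; each spans the 25 bases before the start and the 25 from it on, with the run in capitals. The first annotated start of Gas5 had no run.
Gas5 (second annotated start), chr1:161035141-161035190, plus strand: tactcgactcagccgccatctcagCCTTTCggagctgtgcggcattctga
Snhg8, chr3:123508312-123508361, minus strand: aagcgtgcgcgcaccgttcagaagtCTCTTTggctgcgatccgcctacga
2410006H16Rik, chr11:62602852-62602901, plus strand: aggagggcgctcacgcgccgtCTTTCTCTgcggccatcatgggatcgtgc
Dancr, chr5:74093035-74093084, plus strand: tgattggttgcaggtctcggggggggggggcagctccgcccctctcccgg

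The run was therefore present in 2410006H16Rik, whose difference was -0.03. None began within 5 bases of the annotated start of Dancr, whose difference was 1.01. The C and T run farther on in the printed bases of Dancr lies outside that search and was not counted. A match is a description of the letters and not of the factors that act there.

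B830012L14Rik (ENSMUSG00000098202.1) was the called gene with a negative difference. It is a long intergenic noncoding RNA on the plus strand of chromosome 12, 109695586 to 109702587, in the imprinted Dlk1-Dio3 region, where a chain of noncoding RNAs from Meg3 to Mirg is read from the maternal chromosome. It lay at 36.3, 24.2 and 23.5 CPM in dark WT and 49.4, 41.7 and 36.4 CPM in lit WT libraries. In LiTEC cells it lay at 37.2, 30.6 and 26.8 CPM in the dark and 32.5, 23.6 and 25.8 CPM after light. Replicate 1, the library of batch 1, was the highest in every group, and within each replicate number lit WT stood above dark WT and lit LiTEC below dark LiTEC. The difference was -0.82 ± 0.15 (SE; edgeR adjusted p = 0.0175, n = 3 a group), and by replicate number -0.63, -1.14 and -0.67. Without a batch term it was -0.81 with an adjusted p of 1.00, and in batch 2 alone -0.93 with an adjusted p of 0.685. Its edgeR adjusted p was between 0.054 and 0.132 without replicate 1 or 2 of lit LiTEC, replicate 2 of dark LiTEC, replicate 1 or 2 of lit WT or replicate 2 or 3 of dark WT.

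Most of its neighbours had differences of the same sign. From the start of Meg3 to the end of Mirg, 208.5 kb of chromosome 12 (109541001 to 109749460), 58 genes of the plus strand were tested, and 44 had a negative difference, with a median of -0.45. At an unadjusted p below 0.05, 9 of the 58 were negative and 0 positive, against 3.13% and 3.07% of all tested genes. These counts include B830012L14Rik itself, around which the stretch was chosen. Many of these genes are small RNAs inside the longer ones and share their reads. The 6 genes of at least 5 CPM were all negative: Meg3 (-0.52 ± 0.14), Rian (-0.13 ± 0.08), Gm26945 (-0.39 ± 0.15), Gm37899 (-0.55 ± 0.15), B830012L14Rik and Mirg (-0.32 ± 0.10, SE). Meg3, known as a tumour suppressor RNA, lay at 527, 376 and 370 CPM in dark and 631, 580 and 458 CPM in lit WT libraries, and at 488, 489 and 387 CPM in dark and 434, 395 and 428 CPM in lit LiTEC libraries (edgeR adjusted p = 0.663 for the difference). Of the list for this locus with its flanking protein-coding genes, 10 of 11 were measured, with 1 called, 3 (30%) negative at an unadjusted p below 0.05 and a median of -0.12. Among its members, the protein-coding genes Wdr25, Yy1, Begain, Dlk1 and Dio3 were between -0.10 and 0.19. Over all 10 the values ran from -1.12 to 0.19, and the member with the lowest is not named here.

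**Figure D3:**
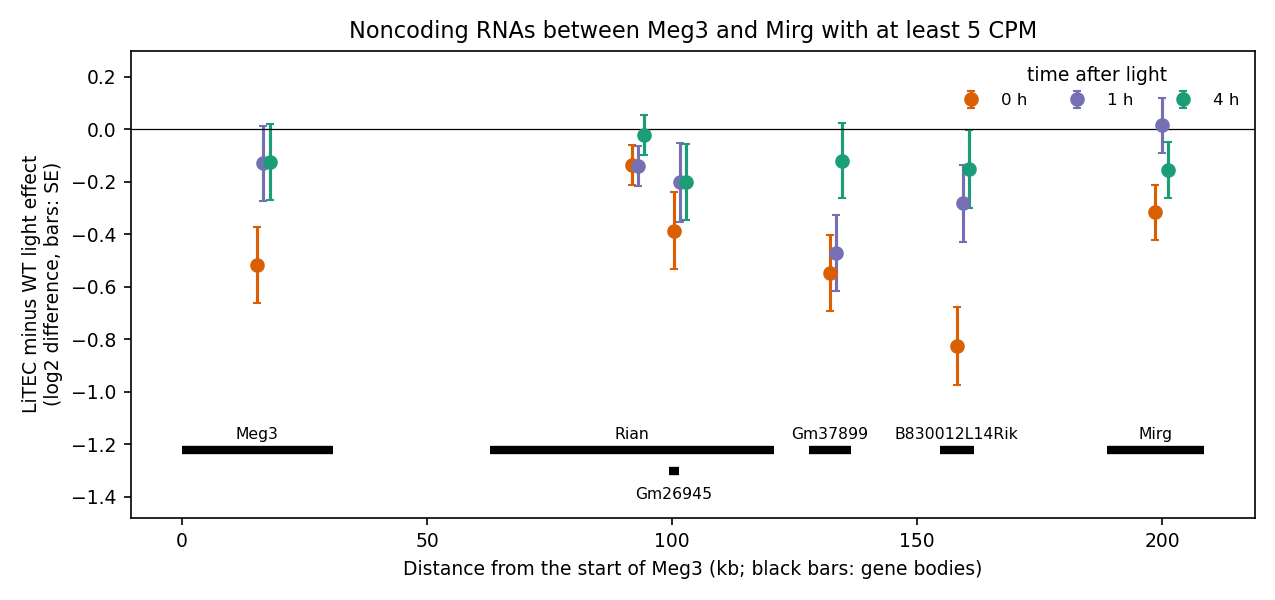
Difference of the light effects (log2, bars SE) at 0, 1 and 4 h for the 6 RNAs of at least 5 CPM between Meg3 and Mirg, drawn at the middle of each gene body, with the later times set slightly to the right, against distance from the start of Meg3; black bars are the gene bodies. All 6 values at 0 h are below 0, and B830012L14Rik has the lowest, -0.82.

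For both Hsp70 genes the lit WT libraries were severalfold above the lit LiTEC ones, but the errors were large and neither difference was called. Hspa1b lay at 8.80, 6.99 and 7.43 CPM in dark and 158, 74.2 and 109 CPM in lit WT libraries. In LiTEC cells it lay at 8.13, 5.95 and 6.67 CPM in the dark and 27.4, 15.2 and 24.4 CPM after light. The lit groups did not overlap, and the dark groups did. The difference was -2.14 ± 0.59 (SE; edgeR adjusted p = 0.663), or 0.227-fold, and by replicate number -2.4, -2.04 and -2.0. When only the 12 libraries at 0 h were fitted, the SE was 0.25 and the gene was called (edgeR adjusted p = 0.00208), as it was with no expression filter (2.41e-32). With no filter the difference was again -2.14, and its SE was 0.17 in place of 0.59. These were the only 2 of 25 settings that called Hspa1b. Its adjusted p was 0.171 with the replicate block in edgeR and 0.417 by DESeq2.

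Hspa1a, its near-identical copy on chromosome 17, lay between 0.562 and 1.02 CPM in dark WT, 28.3 and 69.7 CPM in lit WT, 0.310 and 0.991 CPM in dark LiTEC and 2.44 and 6.71 CPM in lit LiTEC libraries. Its difference was -2.96 ± 0.96 (SE; edgeR adjusted p = 0.68), and reads may have been divided between the copies. No heat shock gene had a positive difference at an unadjusted p below 0.05, and the median over the 27 was 0.002. Dnajb1, the Hsp40 partner of these chaperones, was at -0.10 ± 0.13, and replicate values of -0.55, 0.31 and -0.03 took both signs. Hsph1, which exchanges nucleotides on Hsp70, was at -0.31 (unadjusted p = 0.082), and Hspa8, Hsp90ab1, Hspd1 and Hspe1 were between 0.01 and 0.05.

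Other lists held no called gene at 0 h, and their counts at an unadjusted p below 0.05 stand beside 3.07% (positive) and 3.13% (negative) of all tested genes. Of 35 immediate early genes, 3 were positive at an unadjusted p below 0.05, Btg2 (0.41 ± 0.14), Sertad1 (0.61 ± 0.24) and Ier3 (0.67 ± 0.29, SE), and the list median was 0.04. Of 26 naive pluripotency genes 22 had a positive difference and the median was 0.12. Dppa5a was at 0.40 ± 0.16, Tfcp2l1 at 0.13 ± 0.06 and Dppa4 at -0.17 ± 0.08 (SE), and these 3 had an unadjusted p below 0.05. Nanog was at 0.28 ± 0.14, Pou5f1 at 0.12 ± 0.14 and Sox2 at 0.12 ± 0.09 (edgeR adjusted p from 0.808 to 0.935). Cell-cycle genes with a positive value included the mitotic kinase gene Cdk1 (0.31 ± 0.09), its cyclin gene Ccnb1 (0.26 ± 0.08), Aurkb (0.26 ± 0.11), and among G1/S genes Rrm2 (0.22 ± 0.07) and Pcna (0.19 ± 0.08, SE). There were 3 of 19 G2/M and 3 of 24 G1/S genes at an unadjusted p below 0.05, all positive, with medians of 0.05 and 0.09. At the same p, all positive, stood 3 of 23 p53 targets (median 0.11), 4 of 24 hypoxia and glycolysis genes (0.16), 2 of 22 unfolded protein response genes (0.09) and 1 of 33 subunits of Mediator (3.03%; median 0.05), the complex that joins transcription factors to RNA polymerase II. Among 14 factors of nonsense-mediated decay 1 was positive, Magoh (0.20 ± 0.08), and 1 negative, Upf3b (-0.29 ± 0.12, SE), with a median of 0.004. With the same 36 libraries as the base, Actb and Gapdh were at 0.13 ± 0.08 and 0.12 ± 0.09 (edgeR adjusted p = 0.851 and 0.881).

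Further genes were ranked next by p among those with an established symbol and at least 5 CPM, and none was called. With positive differences they were Txndc9 (0.40 ± 0.10), Notch1 (0.32 ± 0.08), Cox7a2 (0.34 ± 0.09), Pigp (0.75 ± 0.21) and Mief2 (0.59 ± 0.17). With negative ones they were Ankrd16 (-0.49 ± 0.12), Chd2 (-0.41 ± 0.11), Alkbh1 (-0.31 ± 0.09), Spopl (-0.54 ± 0.15), Faim (-0.45 ± 0.13) and Mfsd11 (-0.71 ± 0.20, SE). Their edgeR adjusted p ran from 0.476 to 0.663. Each had the same sign in all 3 replicate numbers, which ranking by p in the same libraries favours. Notch1 encodes a receptor for signals between neighbouring cells, and Chd2 a chromatin remodeller.

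**Figure D4:**
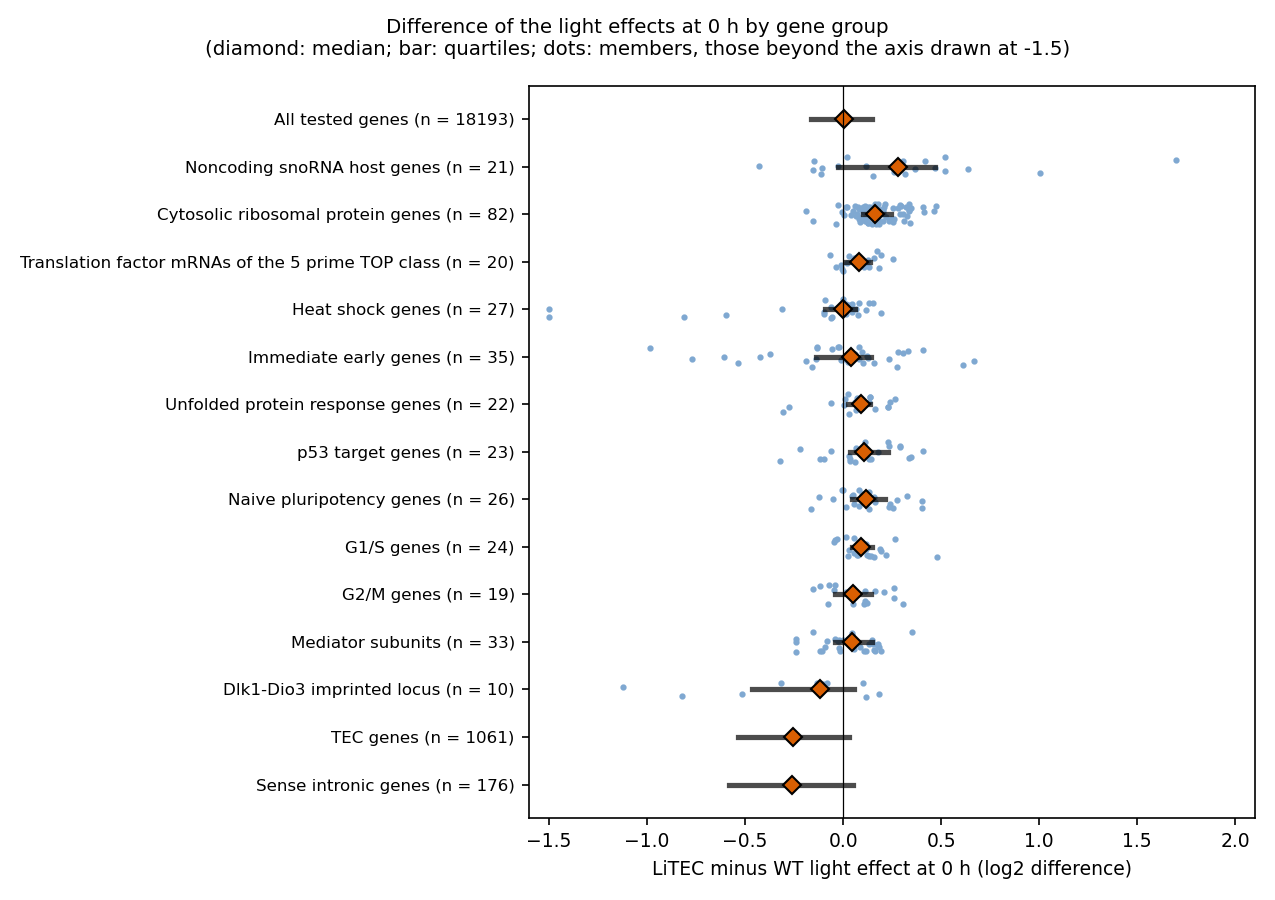
Difference of the light effects at 0 h (log2) by gene group: diamonds are medians, bars run from the first to the third quartile, and dots are members (not drawn for all tested, TEC and sense intronic genes), with the 2 Hsp70 genes, below the axis, drawn at -1.5. Medians are 0.28 for noncoding snoRNA hosts, 0.16 for ribosomal protein genes and -0.26 for TEC and for sense intronic genes, against 0.006 for all tested genes.

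Classes of the GENCODE annotation, were looked at after the values were seen. The TEC class holds single-exon loci whose transcripts await experimental proof, and sense intronic genes lie within introns of other genes on the same strand. Of 1061 TEC genes 121 (11.4%) had a negative difference at an unadjusted p below 0.05 and 8 a positive one, and the median was -0.26. Of 176 sense intronic genes 20 (11.4%) were negative and 3 positive, with a median of -0.26. The background was 3.13% for negative values, and the 13725 protein-coding genes had a median of 0.02. Negative medians were not limited to these classes. The 90 small nuclear RNA genes had -0.27, with 6 (6.67%) negative and 0 positive at that p. The 43 transcribed unprocessed pseudogenes had -0.19, with 3 (6.98%) negative and 0 positive. Medians of long intergenic noncoding RNA and snoRNA genes were -0.04 and 0.01. The TEC median came from light effects of -0.09 in LiTEC and 0.18 in WT, and by replicate number it was -0.15, -0.40 and -0.06. None was called. The count for sense intronic genes fell to 11 (6.25%) without dark LiTEC replicate 2, 12 (6.82%) without dark WT replicate 3 and 13 (7.43%) in batch 2 alone. Without lit LiTEC replicate 1 it was 14 (7.95%), and that for TEC genes was 88 (8.29%). The negative share of all tested genes in these fits was 2.23%, 2.72%, 2.06% and 2.33%, in that order. With 1 library left out the counts reached at most 24 for sense intronic and 149 for TEC genes.

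The difference was also set beside light effects shared by the genotypes, using their mean over LiTEC and WT in the same 12 libraries. Of the 503 genes (2.76%) called higher in that mean, 51 (10.1%) had a negative difference and 8 a positive one at an unadjusted p below 0.05 (3.13% and 3.07% of all tested genes), and the median difference was -0.07. Of the 474 genes (2.61%) called lower, 50 (10.5%) had a positive and 15 a negative difference, and the median was 0.07, with Lrrc75aos2, Snord43 and Gas5 among them. The libraries at 1 h are others. Of the 123 genes (0.676%) called higher in the mean light effect at 1 h, 11 (8.94%) had a negative and 2 a positive difference at 0 h at an unadjusted p below 0.05, with a median of -0.02. Of the 85 genes (0.467%) called lower there, 5 were positive and 5 negative, with a median of 0.01.

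The same difference was computed at 1 h and 4 h after light. No gene was called at either time by edgeR (378 and 657 genes at an unadjusted p below 0.05, lowest adjusted p 1 in both). Dark WT replicate 3 at 4 h had 26.1% of its counts in Gm26917, the highest share in the series, and a TMM factor of 0.802. No fit of the 4 h difference left this library out, so its part in the 4 h values was not tested. Lrrc75aos2 was at -0.58 ± 0.19 at 1 h and -0.07 ± 0.21 at 4 h. Snord43 was at -0.003 ± 0.21 and 0.06 ± 0.22, Gas5 at -0.02 ± 0.09 and 0.14 ± 0.09, and Dancr at 0.12 ± 0.19 and 0.05 ± 0.19. B830012L14Rik was at -0.28 ± 0.15 and -0.15 ± 0.15, and Gm37899 at -0.47 ± 0.14 and -0.12 ± 0.14. Hspa1b was at -1.01 ± 0.58 and -0.09 ± 0.54 (all SE).

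Whether the difference at 0 h was itself apart from the mean of the later ones was tested, and 1 gene of 18193 was called, Lrrc75aos2 (0.0055%; 2.03 ± 0.27, SE; edgeR adjusted p = 0.000155). With the replicate block 2 were called. This test shares the 0 h libraries by which Lrrc75aos2 was ranked, so it is no independent support for genes named from them. The value of 2.03 also takes in the negative difference of Lrrc75aos2 at 1 h (-0.58). Gas5 (0.45 ± 0.11), Snord43 (1.42 ± 0.29) and B830012L14Rik (-0.61 ± 0.18) did not pass (edgeR adjusted p = 0.983, 0.242 and 1.00). The median of the noncoding hosts was -0.02 at 1 h and 0.03 at 4 h, and that of the ribosomal protein genes 0.03 and 0.07. Over the 58 genes from Meg3 to Mirg it was -0.32 and -0.15.

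**Figure D5:**
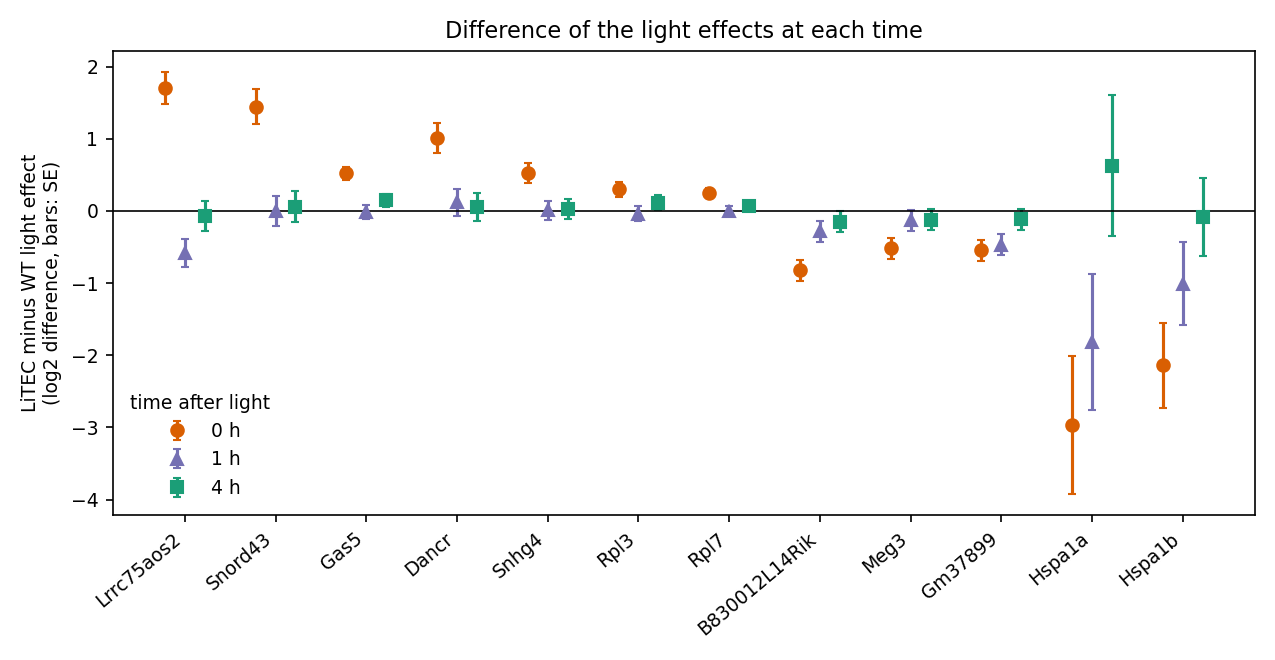
Difference of the light effects (log2, bars SE) at 0, 1 and 4 h for 12 named genes. At 0 h Lrrc75aos2, Snord43, Gas5 and Dancr lie above 0 and Hspa1a and Hspa1b below it, and their values at 4 h are within 2 SE of 0.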

How the data were processed

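Per the labels' protocols, TRIzol was used to extract RNA and the TruSeq Stranded mRNA kit to prepare sequencing libraries. The authors deposited raw counts per gene, made with featureCounts on mm10 (GRCm38) per the submitters' processing notes; for the aligner, strand setting and versions the entry is not given in the sources used here. The light intensity is 3.24 mW/cm2 in the protocol and 3.42 in the design text.

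Genes were kept by filterByExpr (minimum count 10), which left 18193 of 54842, with at least 99.9% of each library's counts. All 36 libraries were fitted with a mean for each of 12 groups and a batch term (23 residual degrees of freedom) by edgeR 4.0.16 (TMM, glmQLFit, glmQLFTest; R 4.3.3, limma 3.58.1), with Benjamini-Hochberg adjustment and a threshold of 0.05. An SE is the log2 value over the square root of F. Replicate values use log2(CPM + 0.5). GENCODE M21 (GRCm38) matched 18184 tested genes by identifier without version.

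Replicate 1 of each group is batch 1 and replicates 2 and 3 batch 2. Deviations of same-numbered libraries at 0 h correlated at 0.41 to 0.755 in 18 of 18 pairs, each of the 12 libraries best with its own number, so the numbers pair the libraries.

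Members and lists were chosen with earlier results of these data known. Named are all called genes and the next 8 on each side by p with an established symbol and at least 5 CPM in a 0 h group. An established symbol excludes Gm numbers, Rik names and clone or accession names. Also named are up to 3 members of a list, 11 fixed genes and neighbours within 20 kb of called genes. Others named were chosen after their values were seen. DESeq2 1.42.0, other scalings, filters, batch terms and left-out libraries were the alternatives. The result of 1 gene is not reported here.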

Additional observations from a re-analysis of the deposited data

Results flagged for a closer look

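The light effect at 0 h differed between LiTEC and WT cells by the test of the difference itself (edgeR) for 4 genes. It was more positive in LiTEC cells for Lrrc75aos2 (1.70), Snord43 (1.45) and Gas5 (0.52), and more negative for B830012L14Rik (-0.82). Each had that sign in all 3 replicate numbers and under all 25 settings tried, and they were called in 24, 20, 17 and 16 of these. The 25 include the main fit that called them, and the others refit the same libraries or part of them. Equal signs there and in the replicate values are thus no independent support.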

How the results depend on the processing

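Counts of genes called for the difference at 0 h were 7 (5 higher, 2 lower) with the replicate block, 9 (5 and 4) with a block in each genotype, 31 (17 and 14) with no expression filter, where 4 were called at 1 h and 16 at 4 h, and 0 in batch 2 alone. No batch term gave 0 lower, the 12 libraries alone 1 higher and 2 lower, and DESeq2 2 lower. Leaving out 1 library gave 1 to 5 (higher 1 to 4, lower 0 to 2): 2 without lit LiTEC replicate 1 or 2, and 1 without replicate 2 of dark LiTEC, replicate 1 of lit WT or replicate 3 of dark WT. The block called 2 genes for 0 h against later times and changed no other call of a named gene than those of Dancr, Amd1 and Malat1.

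List medians in batch 2 alone were 0.0111 for ATF4 targets, 0.34 for two-cell-like state, 0.12 for mesendoderm and 0.28 for neuroectoderm markers and 0.12 for snoRNA genes. Without lit LiTEC replicate 1 they were 0.0486 for RNA polymerase II genes, 0.53 for two-cell-like state and 0.27 for neuroectoderm markers and 0.11 for snoRNA genes. The mesendoderm median thus changed sign from -0.43. No called gene changed sign in any setting; Dnajb1 (-0.23 to 0.13), 2410006H16Rik (-0.12 to 0.05) and Lrrc75a (-0.42 to 0.12), none of them called, did. The causes were not tested. With 3 libraries a group and these depths, genes near 1 CPM such as Snord65 rest on few counts.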

Other observations

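TEC genes stood below protein-coding genes of like level. Between 5 and 20 CPM, 39 of 179 TEC genes (21.8%) had a negative difference at an unadjusted p below 0.05 and the median was -0.27, against 57 of 2980 protein-coding genes (1.91%) and a median of 0.02. Between 1 and 5 CPM the medians were -0.23 for 506 TEC and -0.02 for 2288 protein-coding genes.

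Some genes were called under an alternative only, and are named after their values were seen. Amd1, which encodes an enzyme of polyamine synthesis, had a difference of 0.35 ± 0.11 (SE), with replicate values of 0.45, 0.38 and 0.22. Malat1, an abundant nuclear noncoding RNA at a mean of 4491 CPM, had one of -0.36 ± 0.11, with -0.29, -0.55 and -0.22. The antisense gene Gm12207, called by DESeq2, had one of -1.25 ± 0.27 at a mean of 4.57 CPM, with -0.78, -1.54 and -1.01.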
